A study of Mus musculus with 84 samples.

Results

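The 10 Toll-like receptor (TLR) genes Tlr1, Tlr2, Tlr3, Tlr4, Tlr5, Tlr6, Tlr7, Tlr8, Tlr9 and Tlr13 were examined, out of 21851 protein-coding mouse genes, for histone mark peaks at their promoters, across their gene bodies and in the 50 kb on either side. The members were taken by name as a gene family, without a threshold on any measured value. The libraries came from CUT&Tag, which tags chromatin bound by an antibody, on adipocyte nuclei labelled by AdipoERCre x NuTRAP, a transgenic design in which a tamoxifen-induced Cre under the adiponectin promoter marks adipocyte nuclei for pull-down from epididymal fat. All groups, controls included, carried this design and received tamoxifen. There were 84 libraries of 4 marks: 21 of H3K4me3, found at active or poised promoters, 21 of H3K27ac, found at active promoters and enhancers, 22 of H3K4me1, common at enhancers, and 20 of H3K27me3, a repressive mark. In the 12-week cohort, tissue was taken at an age of 18 weeks after 12 weeks on high-fat diet (H) or on low-fat chow only (C), and at 26 weeks after the same diet followed by 8 weeks of chow (HC) or on chow only (CC_s). In the 25-week cohort, tissue was taken at 31 weeks after 25 weeks on high-fat diet (HH) or on chow only (CC_l), and at 39 weeks after the long diet followed by 8 weeks of chow (HHC) or on chow only (CCC). H and HH are the obese groups, and HC and HHC the weight loss groups. Each group had 2 or 3 libraries per mark. Epididymal fat comes from male mice, in which Tlr7, Tlr8 and Tlr13 lie on a single X chromosome.

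TLRs are membrane receptors that recognise conserved microbial molecules and signal through the adaptors MyD88 or TRIF to NF-kB and interferon regulatory factors. Tlr2 pairs with Tlr1 or Tlr6 at the cell surface to bind lipopeptides, Tlr4 with Ly96 binds lipopolysaccharide, and Tlr5 binds flagellin. Tlr3 senses double-stranded RNA in endosomes, Tlr7, Tlr8 and Tlr13 sense single-stranded RNA, and Tlr9 senses unmethylated CpG DNA. In adipose tissue they are best known from macrophages and other leukocytes, while adipocytes are also known to express some of them, Tlr4 among them.

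The deposited values are peak lists called separately in each library. Their number ranged from 11249 to 46397 peaks per library and the mean coverage per base inside peaks from 4.89 to 77.7. Read depth is otherwise unknown, and coverage was not scaled between libraries, so peak presence and covered base pairs were compared. The 25-week libraries held more H3K4me3 peaks than any 12-week library, with 32225 to 41976 against 11249 to 28592. An H3K27ac library, CCC replicate 3, stood apart from its group with 14917 peaks against 32907 in CCC replicate 1. In 4 H3K4me3 libraries of CC_l, HH and CCC, the treatment field named another group than the title, and the titles were used. Adipocyte markers largely fitted the label, with peaks at 9 to 12 of 12 promoters in every H3K4me3 and every H3K27ac library. All controls had 12, and counts under 12 were all in diet libraries. For H3K4me3 they were 10 in H replicate 2, 10 in HC replicate 3 and 9 in HHC replicate 3. Summed H3K4me3 coverage of the list was 32430 to 39375 bp in H against 51218 to 55542 bp in C. It was 58940 to 59207 bp in HH against 51740 to 57097 bp in CC_l. HC, at 22548 to 43388 bp, overlapped CC_s, at 43117 to 52106 bp, only at the edge, and HHC overlapped CCC. Summed H3K27ac coverage was 17621 to 30207 bp in H against 53604 to 58969 bp in C. It was 17488 to 38732 bp in HC against 45494 to 52473 bp in CC_s, while HH and HHC overlapped their controls. Adipoq also had H3K27me3 in 19 of 20 libraries.

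A promoter comprised 2000 bp either side of each start site. A promoter peak was called gained when every diet library had a peak there and no library of the age-matched controls had one, and lost in the reverse case. At this rule 5 members were gained at the promoter in at least 1 comparison and none was lost, and 10 of 160 combinations of gene, mark and comparison were gained. Among all genes, 0.00458% to 3.98% were gained and 0.0183% to 1.94% were lost in a single comparison of a mark. With losses this rare, the absence of lost members was not shown to be particular to them. All 10 gained combinations lay in the 25-week cohort. In the marks with gained members, gains among all 21851 genes were also rarer in the 12-week cohort. For H3K4me3, 1 gene was gained in H and 70 in HC, against 288 in HH and 303 in HHC. For H3K27ac the numbers were 32, 65, 98 and 506 in the same order, and for H3K4me1 129, 47, 436 and 869. The rule is easier to meet with fewer libraries, and CC_l and CCC had 2 each. The lack of 12-week calls was thus not shown to be particular to the members. In the 12-week cohort further calls appeared when 1 library was left out: without H replicate 3, Tlr13 was gained for H3K4me3, Tlr6 and Tlr7 for H3K27ac and Tlr9 for H3K4me1 in H, without C replicate 1 Tlr4 for H3K4me1 in H, and without HC replicate 1 Tlr3 for H3K27ac in HC. Leaving out a library relaxes this rule, so it can add calls but take none away. At Tlr1 and Tlr8, 88.7% and 93.1% of the H3K4me3 promoter coverage lay after the start site, over the libraries with a peak. The sequences in front of the start site of 4 of the 5 gained members are shown because they lie within the called promoter windows, though not always under the peaks. They are the 250 bases upstream of the RefSeq start on the sense strand of the gene (GRCm38.p6, 5′ to 3′). Capitals mark matches, on either strand, to the PU.1 core GAGGAA, the AP-1 motif TGANTCA, the C/EBP motif TTGCNNAA and the TATA box TATAAA, and the interferon-stimulated response element was also searched.
Tlr1, chr5:64933559-64933808, minus strand: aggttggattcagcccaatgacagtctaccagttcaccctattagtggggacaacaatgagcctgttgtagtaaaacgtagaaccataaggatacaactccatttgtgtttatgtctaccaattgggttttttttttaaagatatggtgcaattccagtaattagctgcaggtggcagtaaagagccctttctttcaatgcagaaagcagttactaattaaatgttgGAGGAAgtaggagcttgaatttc
Tlr6, chr5:64960049-64960298, minus strand: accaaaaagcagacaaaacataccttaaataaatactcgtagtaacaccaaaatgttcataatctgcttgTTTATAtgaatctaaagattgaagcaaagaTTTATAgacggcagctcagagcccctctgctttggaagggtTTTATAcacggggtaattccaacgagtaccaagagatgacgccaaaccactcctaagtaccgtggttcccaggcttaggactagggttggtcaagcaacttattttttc
Tlr8, chrX:167264330-167264579, minus strand: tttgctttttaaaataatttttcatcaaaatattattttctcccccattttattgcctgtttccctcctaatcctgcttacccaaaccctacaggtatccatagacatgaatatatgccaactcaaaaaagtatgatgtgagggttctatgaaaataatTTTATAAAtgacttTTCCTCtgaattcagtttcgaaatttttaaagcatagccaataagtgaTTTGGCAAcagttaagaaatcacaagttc
Tlr9, chr9:106222348-106222597, plus strand: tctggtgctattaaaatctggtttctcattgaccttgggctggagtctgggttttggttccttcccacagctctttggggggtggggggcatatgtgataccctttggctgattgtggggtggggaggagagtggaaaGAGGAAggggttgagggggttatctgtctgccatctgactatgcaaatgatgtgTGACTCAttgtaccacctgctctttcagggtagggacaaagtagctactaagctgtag
The table of RefSeq promoters held 8 of the 10 members, without Tlr4 and Tlr7. PU.1, a factor of myeloid cells, has its core in the windows of Tlr1, Tlr8, Tlr9 and Tlr13, thus in 4 of 8 members and in 23.3% of all 32841 RefSeq promoters of this length. The AP-1 motif was present in Tlr9 alone of the 8 (6.75% of all promoters). C/EBP matches were found in Tlr3 and Tlr8 (9.57%), TATA box matches in Tlr6, with 3, and Tlr8, with 2 that overlap (12.4%), and the interferon element in none (2.98%). The windows of Tlr1, Tlr8 and Tlr9 held 1, 1 and 0 CpG, below the lower quartile of 2 over all promoters, and that of Tlr6 held 6, the median. A match describes letters and not a bound site.

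The members fell into sets that differed in how often H3K4me3 was found in controls, a division made after the values were seen. Tlr2, Tlr3, Tlr4 and Tlr5 had H3K4me3 promoter peaks in 39 of 40 gene-library pairs of the controls and in 42 of 44 of the diet groups. Tlr1, Tlr6, Tlr7, Tlr8, Tlr9 and Tlr13 had them in 3 of 60 pairs of the controls, in 8 of 36 of the 12-week diet libraries and in 23 of 30 of the 25-week diet libraries. H3K27ac gave the second set 1 of 54 pairs in controls, 8 of 36 in the 12-week diet libraries and 17 of 36 in the 25-week diet libraries. H3K4me1 gave it 1 of 60, 4 of 36 and 12 of 36. The second set was chosen for few H3K4me3 peaks in these same controls, so a higher share in diet libraries was partly fixed by that choice. The controls here span both cohorts while the diet libraries are split by cohort, and the 25-week libraries held more H3K4me3 peaks. Gene-library pairs are a description and not replicates.

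**Figure D1:**
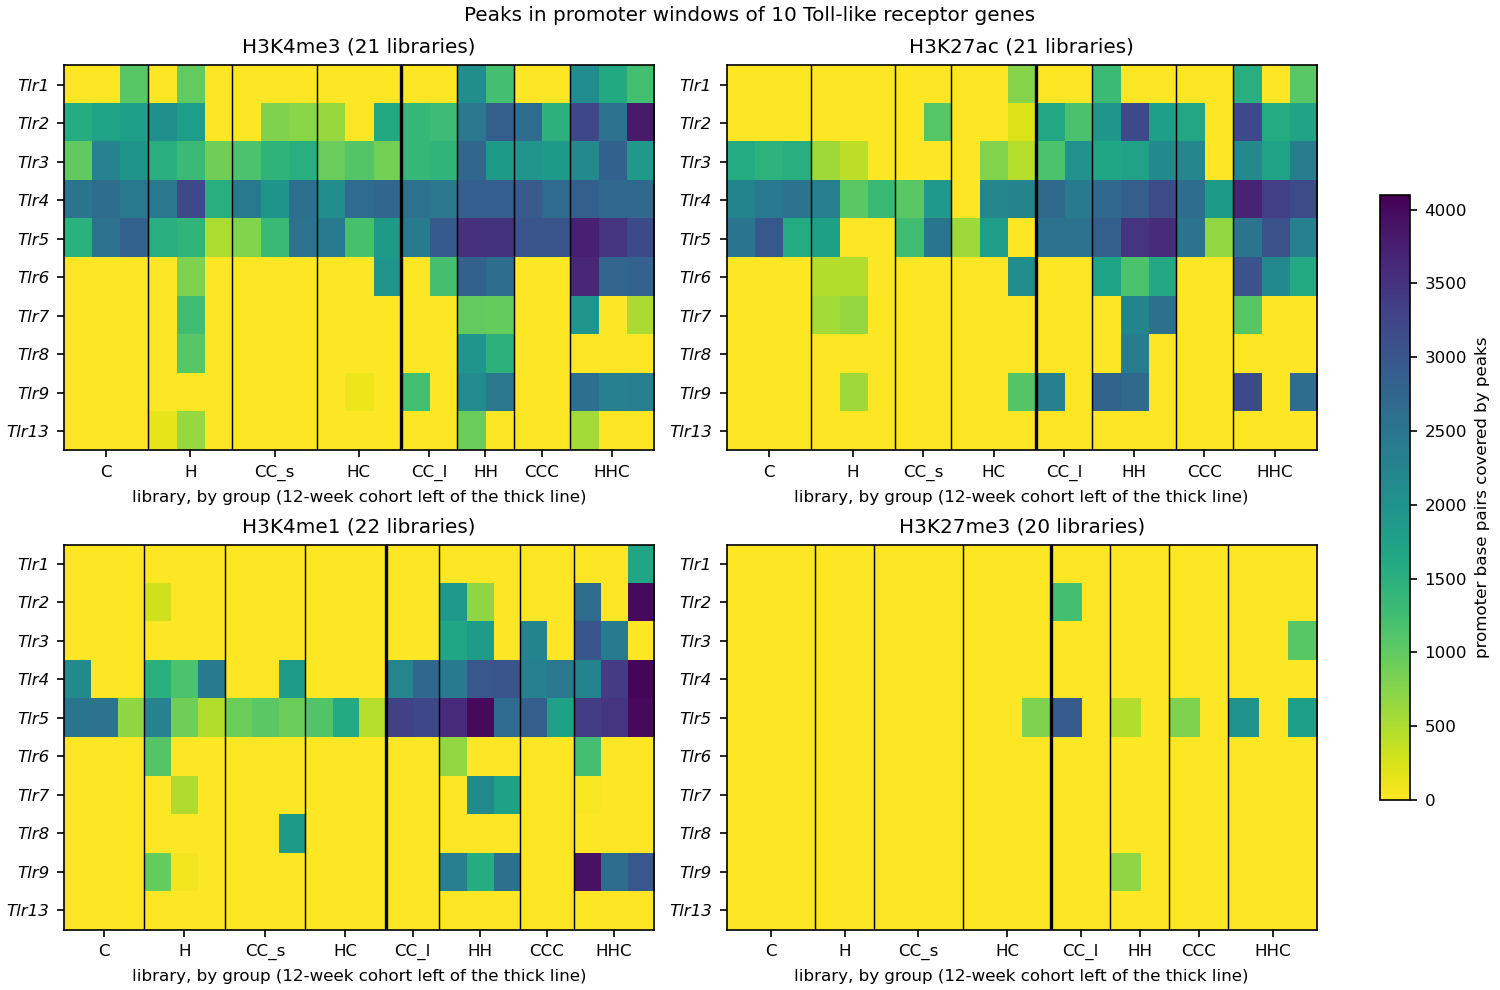
Promoter base pairs covered by peaks (colour) for each of the 10 genes (rows) in each library (columns, by group) of 4 marks. Tlr3, Tlr4 and Tlr5 were covered in all 21 H3K4me3 libraries. For the same mark Tlr1, Tlr6, Tlr7 and Tlr9 were covered mainly in HH and HHC, and Tlr8 mainly in HH and in no HHC library.

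Among the surface receptors, Tlr4 (chr4:66827584-66930284, plus strand) had an H3K4me3 peak in all 21 libraries. Its promoter coverage was 2572 and 2479 bp in CC_l, 2879 and 2874 bp in HH, 2929 and 2666 bp in CCC, and 2853, 2705 and 2694 bp in HHC. HH lay slightly above CC_l, and HHC lay within the range of CCC. Peaks here ranked high, with a total signal above a median of 88.2% of the peaks of the same library. H3K27ac covered the Tlr4 promoter in 20 of 21 libraries and H3K4me1 in 15 of 22, and H3K27me3 in none of 20. A second H3K27ac region in an intron of Tlr4 (chr4:66847179-66853549, centred 22752 bp downstream of the start) had a peak in 17 of 21 libraries of all groups.

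Tlr5 (chr1:182954788-182976044, plus strand) had H3K4me3 in 21 of 21 and H3K4me1 in 22 of 22 libraries, all at the upstream start site. At the other start site, 17389 bp downstream, no H3K4me3 or H3K27ac library had a peak and 1 of 22 H3K4me1 libraries did. H3K4me3 coverage was 1482, 2558 and 2806 bp in C and 1537, 1425 and 497 bp in H, but 2398 and 2943 bp in CC_l and 3517 and 3501 bp in HH. The obese libraries were thus mostly below their controls in the 12-week cohort and above them in the 25-week cohort. Averaged over the cohorts the difference was -145 bp (exact permutation test, two-sided, p = 0.750). H3K4me1 at Tlr5 had a median rank of 95.6% and was among the strongest peaks at any member.

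Tlr2 (chr3:83836272-83841767, minus strand) had H3K4me3 in 18 of 21 libraries and H3K27ac in 11 of 21. H3K4me3 covered 1364 and 1297 bp in CC_l and 2482 and 2855 bp in HH, and 2649 and 1467 bp in CCC and 3218, 2567 and 3805 bp in HHC. HH did not overlap CC_l, while HHC overlapped CCC. In the 12-week cohort it covered 0, 790 and 729 bp in CC_s and 625, 0 and 1613 bp in HC. H3K4me1 was found at the Tlr2 promoter in 5 of 12 diet libraries and in 0 of 10 controls. Averaged over both cohorts, no promoter test of Tlr2 had p under 0.05.

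Tlr1 and Tlr6, the partners of Tlr2, are neighbours on the minus strand of chromosome 5 (chr5:64924679-64933563 and chr5:64952031-64960097), with 18.5 kb between them. At Tlr1, H3K4me3 covered 2079 and 1219 bp in HH and 2110, 1608 and 1236 bp in HHC, and 0 bp in every CC_l and CCC library. Outside the 25-week cohort it was found in 1 library each of C (1058 bp) and H (991 bp). Tlr1 was gained in HH and in HHC. At Tlr6, H3K4me3 covered 2833 and 2615 bp in HH against 0 and 1217 bp in CC_l, and 3664, 2756 and 2811 bp in HHC against 0 bp in both CCC libraries. Tlr6 was gained in HHC only, because 1 CC_l library had a peak, although that peak ranked low (2.45% of the library's peaks lay below it, against 60.1% and 57.1% in HH). In the 12-week cohort 1 of 3 H libraries (785 bp) and 1 of 3 HC libraries (1963 bp) had it. Both promoters were marked together in 6 of 21 H3K4me3 libraries, Tlr1 alone in 1 and Tlr6 alone in 2. The promoter of the adjacent gene Fam114a1 (chr5:64968362-64972653, centred at -10461 bp from the Tlr6 start) had an H3K4me3 peak in 21 of 21 libraries.

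**Figure D2:**
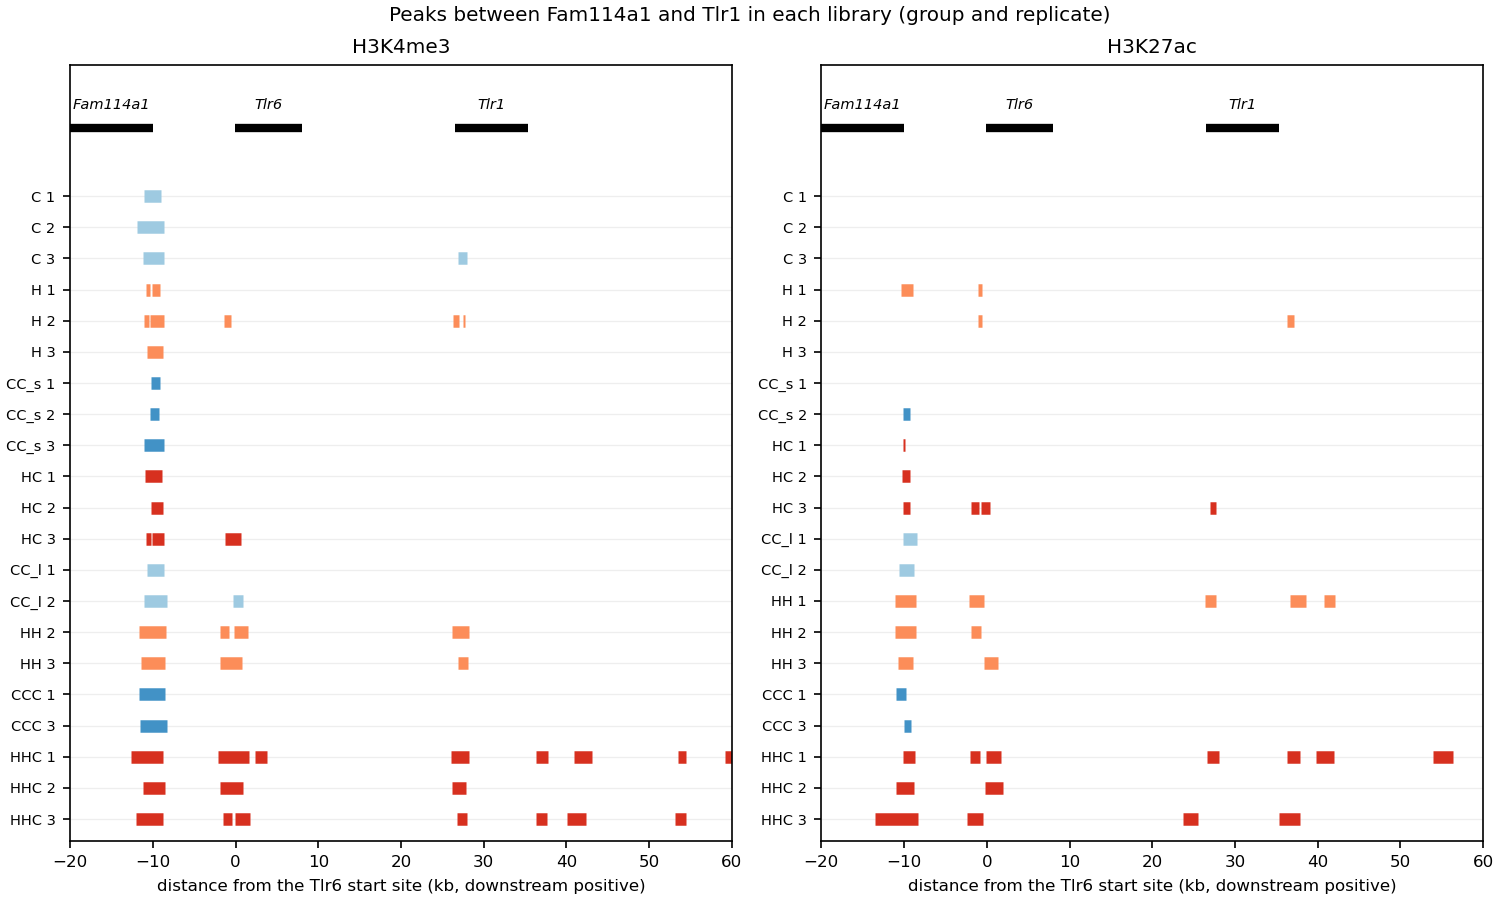
Peaks of H3K4me3 (left) and H3K27ac (right) as bars, 1 library per row, by distance in kb from the Tlr6 start site in its direction of transcription, with gene bodies in black above. Bars at Tlr6 and Tlr1 were present in HHC and HH and in few rows of the controls, and those at the start of Fam114a1 in all rows of H3K4me3.

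Among the endosomal receptors, Tlr3 (chr8:45395665-45411080, minus strand) had H3K4me3 in 21 of 21 libraries, with coverage from 857 to 2822 bp, and H3K27ac in 16 of 21. H3K4me3 covered 1372 and 1414 bp in CC_l, 2727 and 1867 bp in HH, 1966 and 1861 bp in CCC, and 2164, 2822 and 1897 bp in HHC. In the 12-week cohort HC was below its controls, with 939, 1105 and 857 bp against 1157, 1437 and 1529 bp in CC_s.

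Tlr9 (chr9:106222598-106226883, plus strand) had H3K4me3 coverage of 2116 and 2466 bp in HH, 1241 and 0 bp in CC_l, 2596, 2310 and 2343 bp in HHC, and 0 bp in both CCC libraries. Of the 12 libraries of the 12-week cohort 1, an HC library, had coverage, of 110 bp, and the others had none. Tlr9 was gained in HHC. Tlr7 (chrX:167304929-167330558) and Tlr8 (chrX:167242696-167264329), 40.6 kb apart on the minus strand, were gained in HH, with 991 and 962 bp at Tlr7 and 1965 and 1472 bp at Tlr8 against 0 bp in CC_l. After weight loss the pair differed in the peaks seen: HHC had 1951, 0 and 518 bp at Tlr7 and 0 bp in all 3 libraries at Tlr8, a difference between the genes that was not tested. A single H library had both, with 1263 bp at Tlr7 and 1062 bp at Tlr8. At Tlr7 84.3% of the H3K4me3 coverage lay downstream of the start site, and the gain in HH was not called within 500 bp of it. Tlr13 (chrX:106143204-106160493) had H3K4me3 in 4 libraries, 148 and 628 bp in H, 932 bp in HH and 567 bp in HHC, and was not called in any comparison.

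Set beside all genes, 3 of 10 members (Tlr1, Tlr7 and Tlr8) were gained for H3K4me3 in HH against CC_l, where 1.32% of all genes were gained. In HHC against CCC 3 of 10 (Tlr1, Tlr6 and Tlr9) were gained, beside 1.39% of all genes. The HH comparison rests on titles that the treatment fields contradict: with groups taken from the treatment field, the share of libraries with a peak was 50 percentage points lower in HH than in CC_l for each of Tlr1, Tlr7 and Tlr8, and no member was gained for H3K4me3 in any comparison. The HHC comparison is touched as well, since the treatment field places an HH library in CCC and CCC replicate 3 in HH. The difference for Tlr1, Tlr6 and Tlr9 in HHC was then 50 percentage points each, short of a gain. When each H3K4me3 library was reduced to its 11249 strongest peaks, none of these 6 gains was called. Reduced only to the fewest peaks among the libraries compared, 32225 for HH and 33990 for HHC, 5 of the 6 were called, without Tlr7 in HH, and Tlr6 was called in HH as well.

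**Figure D3:**
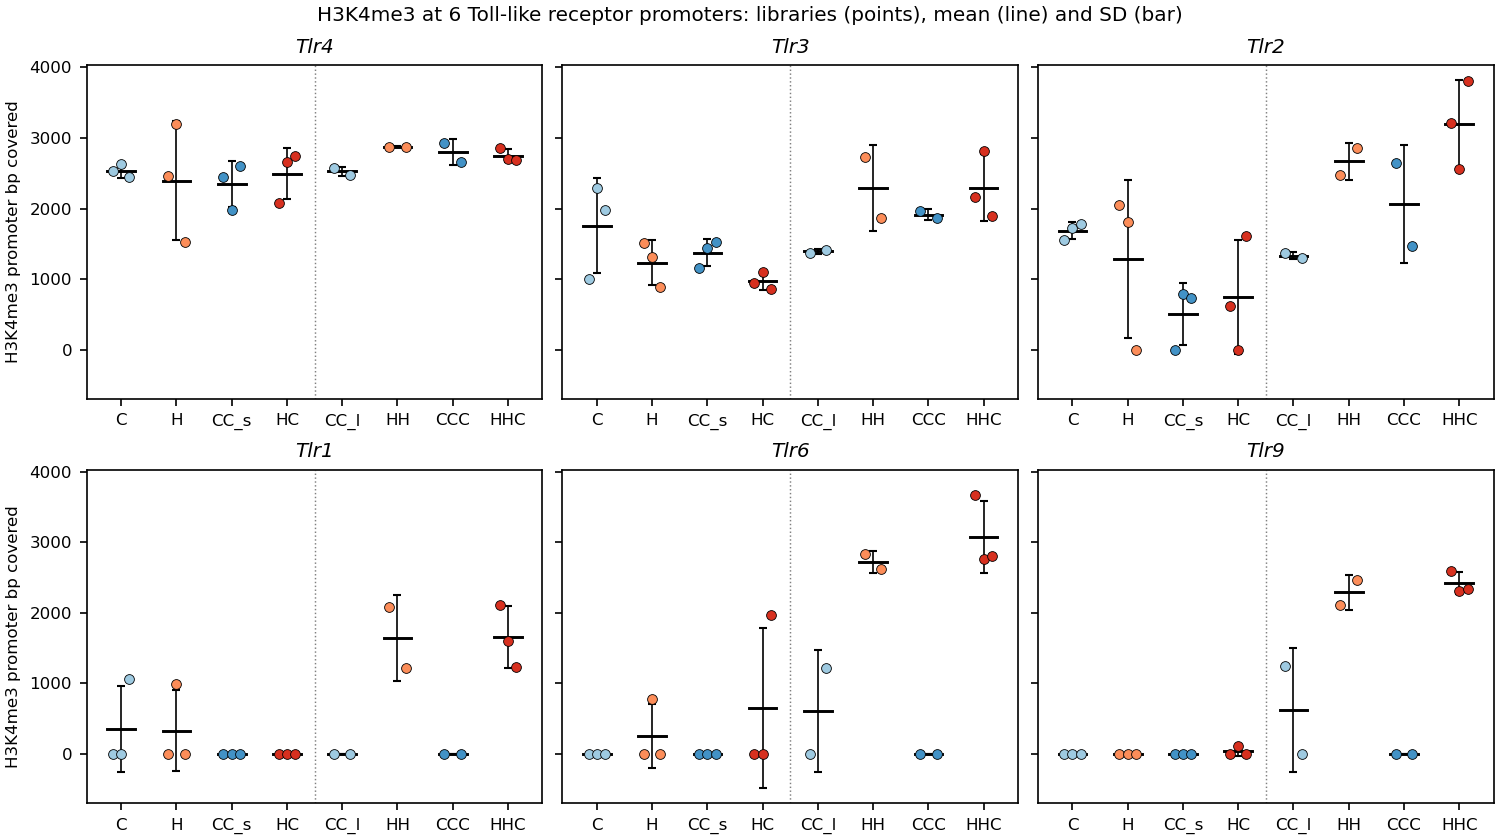
H3K4me3 base pairs covered in the promoter windows (vertical axis) of 6 genes by group (horizontal axis), with 1 point per library, the mean as a line and the SD as a bar; the dotted line parts the 12-week cohort (left) from the 25-week cohort. Tlr1, Tlr6 and Tlr9 were at 0 bp in CCC and at 1236 to 3664 bp in HHC, while Tlr4 was at 1521 to 3202 bp throughout.

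In the tests over both cohorts, H3K4me3 promoter coverage was higher in the obese groups at 9 of 10 members, with a median difference of 583 bp, while 50.4% of all genes were lower and their median was -6.75 bp. The cohorts differed in this. In the 12-week cohort the difference was -22.3 bp at Tlr1, -402 bp at Tlr2, -523 bp at Tlr3, -139 bp at Tlr4 and -1129 bp at Tlr5. There it was 0 bp at Tlr9 and above 0 bp at the other members. In the 25-week cohort it was higher at every member, from 351 bp at Tlr4 to 2116 bp at Tlr6. The shares of all genes above are for both cohorts together and not for this one. By the share of libraries with a peak, 6 members were higher in HH than in CC_l, beside 5.08% of all genes. The H3K4me3 peaks covered 78.9 and 82.6 Mb in all in HH against 50.8 and 75.9 Mb in CC_l. The part of this in the higher coverage was not tested. That comparison, HH against CC_l, is the one whose titles the treatment fields contradict. In the weight loss groups H3K4me3 promoter coverage, averaged over both cohorts, was higher at 8 of 10 with a median of 384 bp, beside 43.2% of all genes and a median of 0 bp. No single H3K4me3 promoter test of a member had p under 0.05. The nearest were Tlr6 and Tlr9 in weight loss, with differences of 1866 and 1226 bp and p = 0.05 each by the exact permutation test, in a design whose smallest possible p is 0.00500. Over all marks 2 of 80 promoter tests of members had an unadjusted p under 0.05, and none of the 21851 genes passed after adjustment in any mark or contrast.

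H3K27ac at Tlr6 followed a similar distribution over groups. It covered 1725, 1155 and 1619 bp in HH, 3054, 2142 and 1597 bp in HHC and 0 bp in all CC_l and CCC libraries, and Tlr6 was gained in both comparisons. In the 12-week cohort it covered 473, 476 and 0 bp in H, 0, 0 and 2098 bp in HC, and 0 bp in all controls. These were 1 of 10 members gained in HH, beside 0.448% of all genes, and 1 of 10 in HHC, beside 2.32% of all genes. The obese mean exceeded the control mean by 908 bp (908 against 0 bp, exact permutation test p = 0.0200, adjusted p over all genes 0.392), and Tlr6 was the 1 member with p under 0.05 in a comparison where 0.348% of all genes were higher at that threshold. The peaks lay mainly upstream of the start, with 37.2% of the coverage after it, and within 500 bp of the start the exact permutation test gave p = 0.400. Leaving out CC_l replicate 1 or 2 gave an exact permutation p = 0.05, and leaving out any 1 HH library gave 0.0667. With all H3K27ac libraries reduced to 12174 peaks, neither gain was called and the exact permutation test gave p = 1. With libraries reduced within a comparison, HH stayed called and HHC, reduced to the 14917 peaks of CCC replicate 3, did not.

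Other H3K27ac peaks at members were less regular. Tlr9 had 2781, 2690 and 0 bp in HH, 2319 and 0 bp in CC_l, 3176, 0 and 2637 bp in HHC and 0 bp in CCC. Tlr7 had 0, 2245 and 2580 bp in HH, 1058, 0 and 0 bp in HHC, 568, 642 and 0 bp in H, and 0 bp in all 9 control libraries. Tlr1 was covered in 4 of 12 diet libraries and 0 of 9 controls, Tlr8 in 1 diet library, and Tlr13 in none. The means of Tlr3, Tlr4 and Tlr5 were lower in H than in C, with Tlr5 at 1768, 0 and 0 bp against 2516, 2973 and 1571 bp. The H libraries as a whole held 9.60 to 24.4 Mb of peaks against 42.8 to 49.0 Mb in C, and the part of this in the lower means was not tested.

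H3K4me1 was gained at Tlr9. It covered 2354, 1557 and 2582 bp in HH, 3895, 2644 and 2984 bp in HHC, 971, 74 and 0 bp in H, and 0 bp in HC and in all 10 control libraries. Tlr9 was the 1 of 10 members gained in HH, beside 2.00% of all genes, and the 1 of 10 in HHC, beside 3.98% of all genes. The obese mean exceeded the control mean by 1256 bp (exact permutation test p = 0.0200, adjusted p over all genes 1), where 1.18% of all genes were higher with p under 0.05. Without CC_l replicate 1 or 2 the exact permutation p was 0.05, and without any 1 HH library it was 0.0667. With 14486 peaks in every library the exact permutation test gave p = 0.700 and neither gain was called, and with libraries reduced within a comparison Tlr9 remained called in HH but not in HHC. Among the other members Tlr7 had H3K4me1 in 4 of 12 diet libraries and 0 of 10 controls, Tlr6 in 3 and 0, Tlr3 in 4 and 1, and Tlr13 in none.

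**Figure D4:**
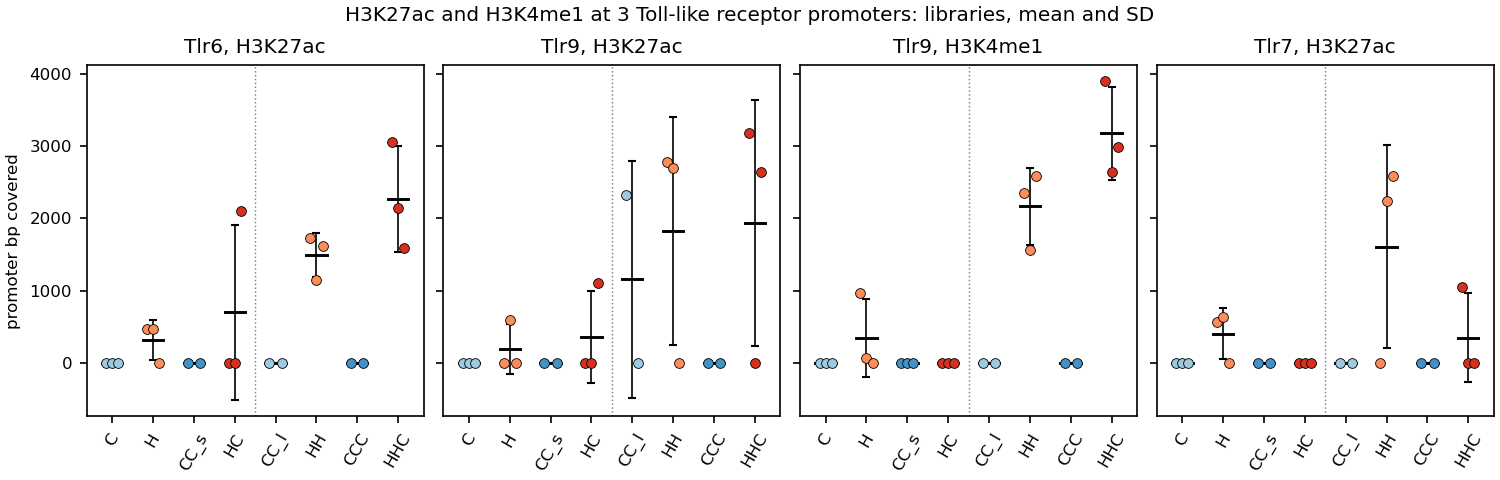
Promoter base pairs covered by H3K27ac at Tlr6, Tlr9 and Tlr7 and by H3K4me1 at Tlr9 (vertical axis) by group, with points for libraries, lines for means and bars for SD; the dotted line parts the cohorts. H3K27ac at Tlr6 and H3K4me1 at Tlr9 were above 1000 bp in every HH and HHC library and at 0 bp in every control.

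H3K27me3 was largely absent from the members' promoters. No library of 20 had it at Tlr1, Tlr4, Tlr6, Tlr7, Tlr8 or Tlr13, and 1 library each had it at Tlr2 (CC_l, 1237 bp), Tlr3 (HHC, 1070 bp) and Tlr9 (HH, 683 bp). Tlr5 had it in 6 of 20 libraries, 2 of 10 controls and 4 of 10 diet libraries. No member was gained or lost. Among all genes, 0.165% to 1.37% were gained and 0.732% to 1.61% lost for this mark in a comparison, so this was not particular to the members. The genes Tlr11 and Tlr12, mouse TLRs outside the set, differed from each other here: Tlr12 had H3K27me3 in 10 of 10 controls and 6 of 10 diet libraries, and Tlr11 in none.

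Marker promoters of other cell types were counted in the same libraries. Of 16 macrophage markers, H3K4me3 was found at 6 and 5 promoters in CC_l, 15 and 15 in HH, 8 and 3 in CCC, and 15, 13 and 13 in HHC. Their summed coverage was 4319 to 8003 bp in CC_l, 32270 to 43373 bp in HH, 6407 to 12484 bp in CCC and 25380 to 43597 bp in HHC. Ptprc, Adgre1, Itgam, Lyz2, Mrc1, C1qa and C1qb had no peak in any CC_l or CCC library. Every marker had a peak in at least 1 HH library, and every marker except Itgam in at least 1 HHC library. The same count was 5, 6 and 7 in C, 15, 16 and 0 in H, 0, 0 and 2 in CC_s, and 0, 3 and 10 in HC. Of the H libraries, replicate 1 had 15 macrophage markers and 5 members marked, replicate 2 had 16 and 9, and replicate 3 had 0 and 3. C replicate 3, with 7 macrophage markers, also had 5 members marked. HC replicate 3, with 10, was the HC library with H3K4me3 at Tlr6. For H3K27ac the macrophage count was 4 and 3 in CC_l, 12, 12 and 8 in HH, 6 and 1 in CCC, and 15, 6 and 10 in HHC, and for H3K4me1 it was 3 and 6, then 5, 8 and 6, then 2 and 3, then 8, 5 and 5. The part of macrophage chromatin in the gained TLR peaks was not tested, and a larger share of macrophage nuclei cannot be told apart from a change within adipocyte nuclei.

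The other marker lists were counted for H3K4me3 in the same way. Lymphocyte markers had peaks at 0 to 2 of 8 promoters in controls, 5 and 4 in HH and 7, 6 and 6 in HHC. Endothelial markers had 4 and 2 of 6 in CC_l, 6 and 6 in HH, 1 and 1 in CCC and 3, 5 and 5 in HHC. Neutrophil markers had 1 or 2 of 5 in CC_l, CCC, HH and HHC, mesothelial markers 2 or 3 of 5 and progenitor markers 3 or 4 of 5 in these groups. In summed coverage, progenitor markers had 7986 to 8864 bp in CC_l, 12255 to 15575 bp in HH, 7316 to 8500 bp in CCC and 13402 to 17375 bp in HHC. Endothelial markers had 4010 to 5083, 17190 to 19447, 2598 to 2764 and 6080 to 15464 bp, and lymphocyte markers 0 to 1010, 5076 to 6186, 0 and 8559 to 21177 bp in the same order. These 3 lists thus covered more in HH and HHC than in their controls without overlap. The ranges of neutrophil markers (1401 to 3754, 2729 to 2985, 3035 to 3155 and 1248 to 3556 bp) and mesothelial markers (3687 to 6597, 4826 to 7126, 4372 to 7754 and 3372 to 10745 bp) overlapped. The part of any of these cells in the TLR results was not tested.

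**Figure D5:**
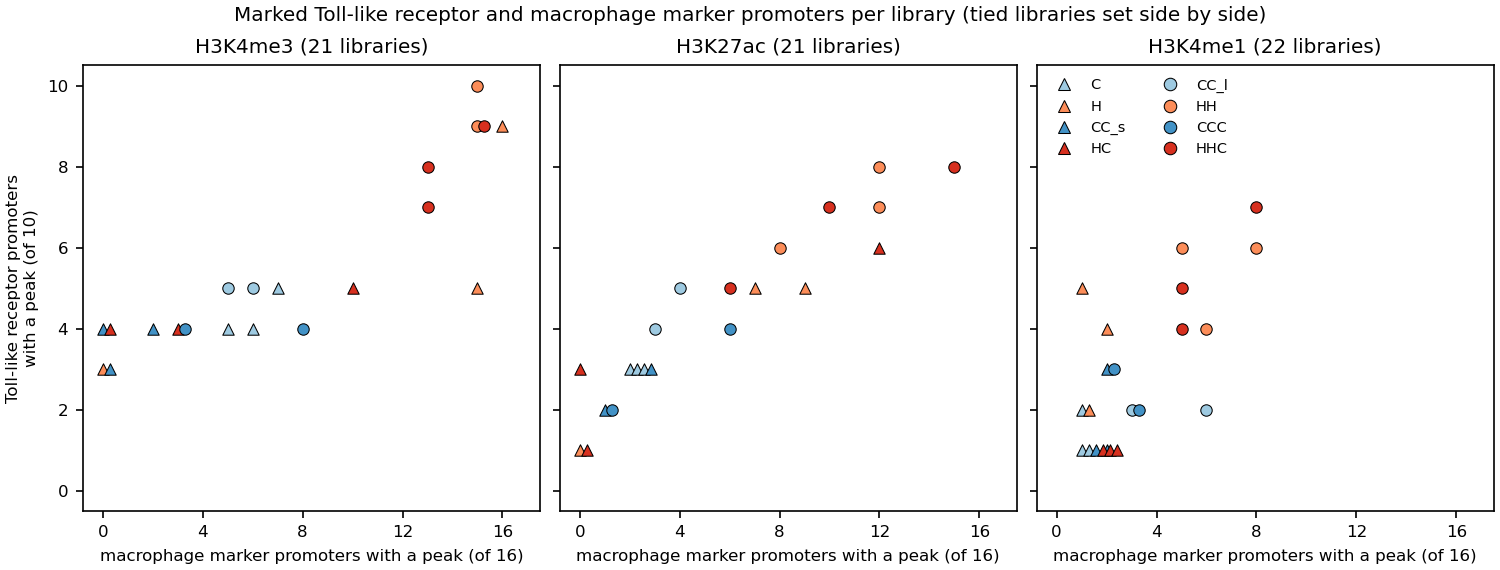
Number of TLR promoters with a peak (vertical axis, of 10) against the number of macrophage marker promoters with a peak (horizontal axis, of 16) in each library, coloured by group; triangles are the 12-week and circles the 25-week cohort. In H3K4me3, libraries with 13 or more marked macrophage genes had 5 to 10 marked TLR promoters, and those with 10 or fewer had 3 to 5.

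Across the gene body and 50 kb flanks, leaving out promoter windows of other genes, 6 of 80 tests of members had p under 0.05 by the exact permutation test, with adjusted p from 0.214 to 0.692 for these 6. Around Tlr7, C and CC_l had no peak of H3K27ac or H3K4me1, while 5 of 6 obese libraries of each mark did. H3K27ac covered 1547, 642 and 0 bp in H and 1342, 4491 and 2825 bp in HH (difference 1808 bp, exact permutation p = 0.0400, beside 0.572% of all genes higher). H3K4me1 around Tlr7 covered 3764, 2368 and 0 bp in H and 1865, 2147 and 5454 bp in HH, with 0 bp in C and CC_l (difference 2600 bp, exact permutation p = 0.0400, beside 6.86% of all genes higher). In the weight loss groups 3 loci were higher. Around Tlr1, H3K4me1 covered 7788, 8976 and 14832 bp in HHC against 3203 and 4933 bp in CCC, and 2088, 1752 and 537 bp in HC against 696, 809 and 965 bp in CC_s (difference 3550 bp, exact permutation p = 0.0400, beside 3.88% higher). The Tlr1 window reaches over Tlr6. Tlr2 had H3K4me3 coverage of 10039, 10301 and 9925 bp in HHC against 7119 and 6502 bp in CCC (difference over both cohorts 1906 bp, exact permutation p = 0.0450, beside 4.42% higher). Tlr3 had H3K27me3 coverage of 6167, 5329 and 11498 bp in HHC against 0 and 1296 bp in CCC (difference 4106 bp, exact permutation p = 0.0300, beside 3.56% higher). Lower coverage was found only around Tlr9, for H3K27ac in the obese groups: 4778, 1357 and 3354 bp in H against 28837, 22990 and 15778 bp in C, and 19733, 35894 and 32724 bp in HH against 38399 and 30064 bp in CC_l (difference -12077 bp, exact permutation p = 0.0350, beside 17.9% of all genes lower). That locus also holds Wdr82, Ppm1m, Twf2 and Alas1, whose bodies were counted, so its coverage is not that of Tlr9 alone, and the H libraries were low over the genome as given above. Each of the 6 lost p under 0.05 when some single libraries were left out, which also raises the smallest possible p. Tlr7 H3K27ac kept p under 0.05 only without H replicate 3, Tlr2 only without HC replicate 2, Tlr1 without CC_s replicate 3 or HC replicate 3, and Tlr3 without CC_s replicate 1 or HC replicate 1 or 2. Tlr7 H3K4me1 kept it without any 1 H library, and Tlr9 without C replicate 3, CC_l replicate 2 or HH replicate 2 or 3. In the other cases the exact permutation p ranged from 0.05 to 0.300.

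Peaks of a mark merged over all its libraries gave 67 H3K4me3 regions around members, and the same presence rule was applied to them. In HH 4 were gained (3.61% of all H3K4me3 regions): the promoters of Tlr1, Tlr7 and Tlr8 and a region between genes at chr1:182927665-182929403, centred at -26254 bp from the Tlr5 start, with a peak in 2 of 2 HH and 2 of 3 HHC libraries. In HHC 4 were gained (2.23%): the promoters of Tlr1 and Tlr6, chr3:83811906-83813295 between genes and 29166 bp downstream of Tlr2, in 3 of 3 HHC libraries and no other library, and chr9:106229336-106231232, 7686 bp downstream of Tlr9. Also in HHC 3 were lost (3.17%), all downstream of Tlr9 and centred 10390 to 47904 bp from its start: chr9:106231857-106234117 in the body of Alas1, chr9:106265551-106268030 and chr9:106269381-106271621. In H 1 was lost (2.89%), chr9:106271875-106275159, between genes and further downstream.

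Of 57 H3K27ac regions, 1 was gained in HH (0.754% of all H3K27ac regions), the Tlr6 promoter (chr5:64958079-64962488), and 2 in HHC (2.64%), the Tlr6 promoter and the promoter of Tmsb4x (chrX:167204598-167213628) in the flank of Tlr8. In H 2 were lost (2.88%): chr9:106207308-106221090, at the Twf2 promoter and with its end in the edge of the Tlr9 promoter window, where the C libraries themselves had 0 bp, and chrX:106134140-106137011, between genes and centred at -7653 bp from the Tlr13 start. For H3K4me1, 1 of 54 was lost in HH (2.96%), chr4:66869497-66871382 in an intron of Tlr4. For H3K27me3, 1 of 49 was gained in HHC (1.06%), chr8:45372620-45374507 in the body of Fam149a, 36816 bp downstream of the Tlr3 start. Most regions around members were not called in any comparison.

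The region with H3K27ac in most libraries lay at the member's own promoter for Tlr3 (16 of 21), Tlr4 (20), Tlr5 (20) and Tlr7 (5). For Tlr9 it was a broad merged region over Tlr9 and Alas1 (chr9:106221386-106251102, 21 of 21). Elsewhere it lay away from the member: for Tlr2 at chr3:83861661-83866755, centred at -22442 bp from its start and between genes (20), for Tlr1 at chr5:64875952-64879512, 55028 bp downstream of its start and between genes (17), for Tlr6 at the Fam114a1 promoter (15), for Tlr8 at the Tmsb4x promoter (10) and for Tlr13 at the Pgk1 promoter (21). At Tlr13 an intronic region (chrX:106148288-106150812) had H3K27ac in 2 of 3 C, 2 of 2 CC_l, 2 of 3 HH and 1 of 2 CCC libraries and in no library of H, CC_s, HC or HHC.

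The 53 other genes of the pathway were read by role in the comparisons where a member was called. Most of the intracellular pathway was marked throughout: H3K4me3 was found in every library at 4 of 4 trafficking genes such as Unc93b1, which carries nucleic acid-sensing TLRs to endosomes, at 3 of 5 adaptors, at 9 of 14 kinases and ubiquitin ligases, at 4 of 8 transcription factors and at 6 of 8 inhibitors, but at 0 of 8 induced cytokines. Co-receptors and ligand carriers had it in every library at 3 of 6. Of all genes, 39.2% had H3K4me3 in every library, a share that the smaller roles were not tested against. For H3K4me3, 2 of 53 were gained in HH (beside 1.32% of all genes) and 1 in HHC (beside 1.39%). Ly86, whose product MD-1 pairs with the Tlr4 relative Cd180, had 2604 and 2105 bp in HH and 2331, 2312 and 2325 bp in HHC, with 0 bp in CC_l and CCC. Tnf, a cytokine induced by TLR signalling, had 2273 and 2868 bp in HH and 0 bp in CC_l. For H3K27ac, 3 of 53 were gained in HH (beside 0.448% of all genes), the co-receptor genes Cd180 and Ly86 and the signalling inhibitor gene Pik3ap1, and 1 of 53 in HHC (beside 2.32%), Tnf, at 4004, 1833 and 2587 bp. For H3K4me1, 6 of 53 were gained in HH (beside 2.00% of all genes), namely Ly96, Cd180, the ubiquitin ligase gene Traf3, the kinase genes Tbk1 and Ikbke, and the inhibitor gene Tollip, and 5 of 53 in HHC (beside 3.98%), namely Cd180, Traf6, Tbk1, Tollip and Pik3ap1. A single pathway gene was lost in these comparisons, Ikbkb, whose kinase activates NF-kB, for H3K4me1 in HHC (0, 0 and 0 bp against 1453 and 2536 bp in CCC, beside 0.494% of all genes lost).

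The genes whose promoter peaks were present in most nearly the same of the 84 libraries, over all marks together, were named as a description, since libraries share marks and peak numbers. For Tlr1, present in 12 libraries, they were Cnr2 (r = 0.822), Clec2g (r = 0.806) and Stap1 (r = 0.787), and for Tlr6, present in 20, they were Fcgr3 (r = 0.803), Ifi205 (r = 0.797) and Haao (r = 0.785). Tlr7 (14 libraries) was nearest to H2-Ob (r = 0.773), Lalba (r = 0.668) and Glipr1 (r = 0.636), and Tlr9 (23) to Gpr18 (r = 0.755), AB124611 (r = 0.727) and Gm5431 (r = 0.722). Tlr2 (35) was nearest to Slc25a24 (r = 0.878), Cyba (r = 0.877) and Ino80b (r = 0.859). Tlr3 (43) was near to Rp2 and Primpol (r = 0.906 each), Tlr4 (56) to Pgls (r = 0.949), Capns1 and Msmo1 (r = 0.947 each), and Tlr5 (67) to Crip2 (r = 0.808), Ppp1r3d and Fam217b (r = 0.796 each). Tlr8 and Tlr13, present in 5 and 4 libraries, were too rare for this comparison.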

How the data were processed

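The authors trimmed reads with Trim Galore 0.6.6, aligned them to mm10 with Bowtie2 2.4.4, processed them with SAMtools 1.13 and bedtools 2.30 and called peaks per library, without pooling replicates, with SEACR 1.3 in stringent mode at 0.01. The deposited lists give, for each peak, its position and its total and maximum signal (coverage summed or at the maximum, not scaled between libraries); all values were whole numbers. Signal was used only as a rank within a library.

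Groups followed the sample titles. Genes and start sites were the protein-coding ones of the GENCODE vM21 basic set without mitochondrial genes (21851 genes, 41438 start sites, GRCm38). Covered base pairs were computed in promoter windows and in gene bodies with flanks. Diet minus control means, averaged over the 12-week and 25-week cohorts, were tested with an exact two-sided permutation test within cohorts for every gene, with Benjamini-Hochberg adjustment over all genes per mark and contrast. The labels call the replicates biological. The study describes paired assays from a single fat depot, so libraries of different marks with the same group and replicate number can share tissue and the marks are not independent. P-values measure only the spread between libraries. The computation used Python 3.11, numpy 2.4.6 and pandas 2.3.3 and was tested on simulated data.

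Marker lists were those of macrophages, adipocytes, lymphocytes, neutrophils, endothelial, mesothelial and progenitor cells. Members, gene lists and tests were chosen with earlier results of these data known. Named were all 10 members, every region around them called by the presence rule, the region with H3K27ac in most libraries, pathway genes called in the same comparison and mark as a member, the 3 genes of most alike peak presence for members with peaks in 10 to 74 libraries, and RefSeq promoters of called members; 1 gene that this rule names is not reported here. Alternatives were a 500 bp window, at least 200 bp of overlap, equal numbers of peaks, peak presence or rank, 20 kb flanks, other genes' promoters kept, a share of covered base pairs, the treatment field, a replicate block and leaving out single libraries. Equal numbers of peaks within a comparison was added after seeing the data. Replicate numbers gave no pairing.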

Additional observations from a re-analysis of the deposited data

Results flagged for a closer look

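The diet minus control difference was compared between the 12-week and 25-week cohorts by an exact permutation test. It differed at an unadjusted p under 0.05 in 10 of 160 tests of members. The share of all genes that passed the same test is given beside each. For the obese groups this was so for H3K4me3 at the Tlr5 promoter (25-week minus 12-week difference 1968 bp, exact permutation p = 0.0333, 16.4% of all genes) and locus (5649 bp, p = 0.0167, 23.3%), and for H3K27ac at the promoters of Tlr3 (1462 bp, p = 0.0300), Tlr4 (1189 bp, p = 0.0300) and Tlr5 (2522 bp, p = 0.0200; 6.14% of all genes) and at the Tlr5 locus (6090 bp, p = 0.0200, 6.20%). For the weight loss groups it was so for H3K4me3 at the Tlr3 promoter (788 bp, exact permutation p = 0.0450, 1.01%) and locus (1652 bp, p = 0.0400, 1.24%), for H3K27ac at the Tlr9 locus (28112 bp, p = 0.0300, 4.83%) and for H3K4me1 at the Tlr2 locus (8335 bp, p = 0.0150, 1.49%). In each case coverage was lower than in controls in the 12-week cohort and higher in the 25-week cohort. The H3K4me3 results of the obese groups rest on the titles that the treatment fields contradict. For H3K27ac, H libraries held 9.60 to 24.4 Mb of peaks against 42.8 to 49.0 Mb in C. CCC replicate 3 held 20.9 Mb for this mark against 94.3 Mb in CCC replicate 1. The part of these library differences in the results was not tested. No promoter of the 5 members gained in the 25-week cohort (Tlr1, Tlr6, Tlr7, Tlr8 and Tlr9) passed the test between cohorts, so for them a difference between the cohorts was not shown.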

How the results depend on the processing

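The gains at promoters kept their number within 1.5 times with at least 200 bp of overlap in every mark. With a 500 bp window H3K27ac gains fell from 2 to 1. With equal numbers of peaks over a mark, H3K4me3 gains fell from 6 to 2, both of them Tlr2, and H3K27ac and H3K4me1 gains from 2 to 0 each; within the comparison they were 6, 1 and 1. The treatment field gave 0 H3K4me3 gains and 1 loss (Tlr9 in HH), and turned Tlr1, Tlr7 and Tlr8 in HH against CC_l to -50 percentage points. Promoter tests with p under 0.05, 1 each for H3K27ac and H3K4me1, fell to 0 with a 500 bp window and with equal numbers of peaks. Locus tests fell to 0 for H3K4me3 with 20 kb flanks or the treatment field, for H3K4me1 with equal numbers of peaks (1 with 20 kb flanks) and for H3K27me3 with 20 kb flanks or with other genes' promoters kept, and rose to 3 for H3K27me3 with equal numbers of peaks. The causes were not tested, beyond the fact that fewer peaks leave fewer marked promoters.

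Leaving out single libraries gave 6 to 7 gains for H3K4me3, 2 to 4 for H3K27ac, 2 to 4 for H3K4me1 and 0 to 1 for H3K27me3, and 0, 0 to 1, 0 and 0 to 1 losses. The 4 H3K27ac gains came without H replicate 3 (with Tlr6 and Tlr7 in H), CCC replicate 1 (Tlr2 and Tlr3 in HHC) or HHC replicate 2 (Tlr1 and Tlr9), and the 4 H3K4me1 gains without HH replicate 3 (Tlr2 and Tlr3). The H3K27me3 gain was Tlr9 without HH replicate 3, and the losses were Tlr5 in H without H replicate 1 for H3K27ac and Tlr2 in HH without CC_l replicate 2 for H3K27me3. Promoter tests with p under 0.05 were then 0 to 2 in H3K4me3, H3K27ac and H3K4me1 and 0 in H3K27me3, and locus tests were 0 to 3 in H3K4me3 and H3K27ac, 1 to 3 in H3K4me1 and 0 to 2 in H3K27me3.

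With the replicate block every promoter and locus count was 0, in a design whose smallest p is 0.0625 to 0.250. Groups differ in age or diet and so hold different mice, and the deviations of same-numbered libraries correlated at -0.511 to 0.318, over 0.1 in 9 of 36 pairs, so they were taken as names only. Groups of 2 or 3 libraries and unknown read depth limit all results: a missing peak says only that none was called.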
